A study of Homo sapiens with 30 samples.

Results

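The immediate early AP-1 and EGR factors are 10 of the 60656 genes listed for these libraries: FOS, FOSB, FOSL2, JUN, JUNB, JUND, EGR1, EGR2, EGR3 and IER2. They were taken by gene symbol and followed by gene identifier through 30 RNA-sequencing libraries from lines of diffuse large B cell lymphoma (DLBCL), a human tumour, 3 libraries in each of 10 groups. In the first set, OCI-LY3, HT, OCI-LY19 and SUDHL5 were sampled after 24 h in 0.2 µM doxorubicin or untreated at 0 h. The second set compared OCI-LY19R, an OCI-LY19 derivative with acquired resistance grown in 20 nM doxorubicin and freed of it 1 week before use, with OCI-LY19S, its drug-sensitive parent grown without drug. The labels give the genotype of each line as WT and call the libraries of a group biological triplicates. Doxorubicin, an anthracycline, poisons topoisomerase II and breaks DNA. No line had an untreated library at 24 h, so drug and time in culture cannot be told apart.

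FOS and JUN proteins carry a basic leucine zipper and pair to form AP-1, the dimer that binds TGAGTCA and related sites. FOS, FOSB and FOSL2 need a JUN partner, whereas JUN, JUNB and JUND can also pair among themselves. EGR1, EGR2 and EGR3 are zinc finger factors that bind GC-rich sites, and in B cells they are known as early targets of antigen receptor signalling. IER2 is a small nuclear protein named for its early induction. The class is induced within minutes of a stimulus without new protein synthesis, largely through serum response factor at CArG boxes and through CREB and ATF proteins at cAMP response elements, and its transcripts are short-lived.

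The promoters of FOS, JUN, EGR1 and EGR2 are shown because these were the members higher in doxorubicin-treated OCI-LY19 cells. Each is the 250 bases before a RefSeq transcript start on GRCh38.p14, read 5′ to 3′ on the gene's strand. Capitals mark the CArG box, TGACGT (the core of a cAMP response element, ACGTCA on the opposite strand), TGACATCA (a JUN-type AP-1 or ATF site) and GCGNGGGCG (an EGR site).
FOS, chr14:75278578-75278827, plus strand: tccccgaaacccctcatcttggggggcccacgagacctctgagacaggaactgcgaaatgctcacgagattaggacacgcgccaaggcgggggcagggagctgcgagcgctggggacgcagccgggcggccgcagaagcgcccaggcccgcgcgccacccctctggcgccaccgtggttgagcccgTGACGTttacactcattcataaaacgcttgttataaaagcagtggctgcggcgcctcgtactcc
JUN, chr1:58784048-58784297, minus strand: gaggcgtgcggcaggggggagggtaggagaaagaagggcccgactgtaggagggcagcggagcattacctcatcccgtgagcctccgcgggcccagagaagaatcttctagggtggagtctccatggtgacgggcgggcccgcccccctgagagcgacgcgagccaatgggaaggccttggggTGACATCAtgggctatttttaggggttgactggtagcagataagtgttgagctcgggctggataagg
EGR1, chr5:138465229-138465478, plus strand: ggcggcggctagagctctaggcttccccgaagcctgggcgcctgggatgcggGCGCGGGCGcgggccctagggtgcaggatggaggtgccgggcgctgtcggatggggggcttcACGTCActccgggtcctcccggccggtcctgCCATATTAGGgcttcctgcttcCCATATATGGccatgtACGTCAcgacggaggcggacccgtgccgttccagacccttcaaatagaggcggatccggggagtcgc
EGR2, the third of 3 listed starts, chr10:62816367-62816616, minus strand: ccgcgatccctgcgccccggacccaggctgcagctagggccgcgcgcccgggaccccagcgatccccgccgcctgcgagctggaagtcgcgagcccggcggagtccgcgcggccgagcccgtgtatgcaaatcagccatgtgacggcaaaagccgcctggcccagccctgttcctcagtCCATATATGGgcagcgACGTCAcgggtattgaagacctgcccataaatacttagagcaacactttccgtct
Both strands were searched for these motifs and for TGAGTCA and TGACGTCA, which contains TGACGT. In the EGR1 window 2 CArG boxes lay at −105 to −96 and at −83 to −74, counted back from the transcript start, and in the EGR2 window shown 1 lay at −71 to −62, while the windows of the other 2 EGR2 starts held none of the motifs. A CArG box was present in 1.16% of the 35116 promoters of the same table. TGACGT was found in the FOS window at −64 to −59, in EGR1 at −67 to −62 and −136 to −131, in EGR2 at −55 to −50, in the FOSL2, FOSB and JUND windows, and in 7.10% of all promoters. TGACATCA stood at −67 to −60 in JUN and in 2.37% of all promoters, and GCGNGGGCG at −198 to −190 in EGR1 and in 8.41%. None of the 11 member windows, from 9 matched genes, held TGAGTCA, which 4.20% of promoters held. TGACGTCA, held by 1.65% of promoters, was found in the JUND window. These are letter matches in one window, not measured binding sites.

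Levels are given as FPKM, reads scaled by exon length and library total, which allows a comparison between genes. Recovered read totals were 16064441 to 38329839 per library in the 4 lines, 23781127 to 33437147 in OCI-LY19R and 18352454 to 121759999 in OCI-LY19S. All 6 B cell markers averaged at least 1 FPKM in every group. In OCI-LY3 their summed FPKM was 680 to 852 in doxorubicin and 1260 to 1510 untreated. In the same order the sums were 816 to 870 and 1040 to 1060 in HT, and 358 to 365 and 383 to 435 in OCI-LY19. SUDHL5 went the other way, with 1200 to 1240 in doxorubicin and 1010 to 1020 untreated. OCI-LY19R (263 to 289) and OCI-LY19S (284 to 464) overlapped. The part of these markers in the differences of the members was not tested. Of the members, 9 passed the filter on low values in the 4 lines, all but EGR3, and 6 passed in the resistant set, all but FOSB, JUN, EGR2 and EGR3. EGR2 passed in the 4 lines only through the doxorubicin libraries of OCI-LY19 and SUDHL5, where it is highest, so some of its groups had to differ. FOS and FOSL2 reached 1 FPKM only in libraries of OCI-LY19 and SUDHL5, and JUN and FOSB in no OCI-LY3 library. For these genes too the filter favoured a difference between lines. Differences are on the log2(FPKM + 1) scale, first group minus second, with a standard error (SE); "called" means that the limma p, adjusted by Benjamini-Hochberg over every tested gene, was below 0.05. That scale understates the change of genes near or below 1 FPKM.

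Untreated lines differed in all 9 members tested (moderated F test), a share to be read against 90.5% of all genes. SUDHL5 was the line of high expression: 8 of 9 members were higher there than in OCI-LY3 and 8 of 9 than in HT, against 35.7% and 27.1% of all genes called higher in the same comparisons. These 8 include FOS, FOSL2 and EGR2, which passed the filter only through libraries of OCI-LY19 and SUDHL5. The filter thus favoured their place in both counts and in the F test. The names of all SUDHL5 libraries end in a tag that no library of the other lines carries. Line and tag therefore cannot be told apart in any comparison of SUDHL5 with another line. EGR1, which activates growth and differentiation genes, had 107, 95.0 and 101 FPKM in untreated SUDHL5 and 7.54, 7.60 and 7.46 FPKM in untreated OCI-LY19. It had 1.72, 2.15 and 1.52 FPKM in untreated OCI-LY3 and 1.14, 0.909 and 0.850 FPKM in untreated HT. Each neighbouring pair in that order differed, with adjusted p of 0.00518 for the closest pair, HT minus OCI-LY3 at −0.50.

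JUND and JUNB are the AP-1 subunits most often present without stimulation. JUND averaged 118 ± 4.59 FPKM in untreated SUDHL5, 15.0 ± 1.05 in HT, 8.92 ± 6.22 in OCI-LY3 and 3.62 ± 2.84 in OCI-LY19 (SD, n = 3 each). HT and OCI-LY3 did not differ at the threshold (adjusted p = 0.0552), while OCI-LY19 lay below OCI-LY3 by 1.09 (adjusted p = 0.0166). JUNB averaged 81.5 ± 2.25 FPKM in SUDHL5 and 11.6 to 16.4 FPKM in the other 3 lines, which did not differ from each other in any pair.

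FOSL2, a FOS protein without the strong activation domain of FOS, broke the order. It had 23.6, 19.2 and 19.9 FPKM in untreated OCI-LY19, 2.23, 2.14 and 2.35 FPKM in SUDHL5 and at most 0.153 FPKM in any untreated OCI-LY3 or HT library. The OCI-LY19 minus SUDHL5 difference was 2.75 ± 0.09 (SE, adjusted p = 1.19e-15), and OCI-LY3 and HT did not differ at the threshold (adjusted p = 0.167). FOS averaged 11.3, 1.43, 0.353 and 0.296 FPKM in untreated SUDHL5, OCI-LY19, OCI-LY3 and HT, and only the last pair was not called different. For JUN the averages were 6.49, 1.88, 1.26 and 0.456 FPKM in SUDHL5, OCI-LY19, HT and OCI-LY3, with OCI-LY19 and HT not separated (adjusted p = 0.058). IER2 averaged 62.3 FPKM in SUDHL5, 34.4 in OCI-LY19 and 12.9 in each of HT and OCI-LY3.

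The 3 remaining members were low in every untreated line. FOSB averaged 0.576 to 1.16 FPKM, and no neighbours in its order (OCI-LY19, HT, SUDHL5, OCI-LY3) were called different. EGR2 averaged 0.649 FPKM in SUDHL5, 0.515 in OCI-LY19, 0.397 in OCI-LY3 and 0.0511 in HT, and only the step to HT separated neighbours. EGR3 had a different order, with 0.402, 0.647 and 0.311 FPKM in untreated OCI-LY3 and at most 0.146 FPKM in any untreated library of the other lines.

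**Figure D1:**
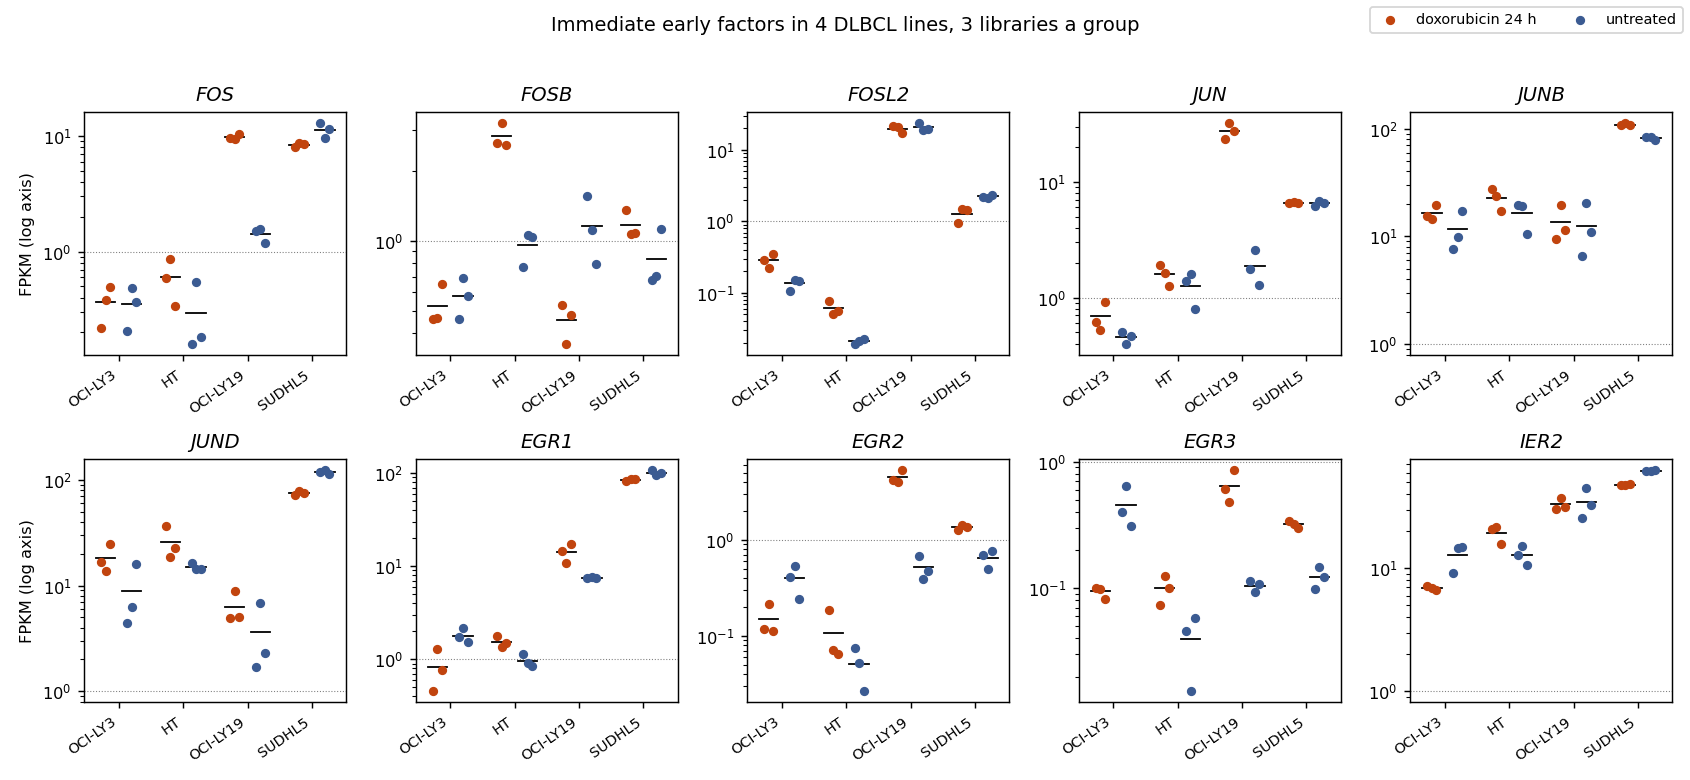
FPKM of the 10 members (log axis, own range per panel) in doxorubicin (24 h, red, left) and untreated (blue, right) libraries of each line; points are libraries, bars are means of 3, and the dotted line is 1 FPKM. JUN stands at 23.6 to 32.0 FPKM in doxorubicin-treated OCI-LY19 and at 1.27 to 2.59 FPKM untreated, while the SUDHL5 groups are the highest for EGR1, JUNB, JUND and IER2.

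In OCI-LY19, JUN, FOS, EGR2 and EGR1 rose in doxorubicin and FOSB fell, 5 of the 9 members tested. Over all genes 34.5% were called higher and 23.7% lower in this line, 58.2% in either direction, so the count is near the background. Higher genes made up 59.3% of those calls, and 44.7% after quantile normalization. JUN, the main transactivating subunit of AP-1, had 23.6, 32.0 and 27.3 FPKM in doxorubicin, against 1.77, 2.59 and 1.27 FPKM untreated. The groups lay far apart, with a ratio of means of 14.7 and a difference of 3.33 ± 0.15 (SE, n = 3 each, adjusted p = 9.85e-13). In bulk libraries such as these, a change in the number of cells of a kind and in the RNA per cell cannot be told apart.

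FOS, the labile partner of JUN, had 9.61, 9.48 and 10.4 FPKM in doxorubicin and 1.52, 1.58 and 1.19 FPKM untreated in OCI-LY19. No library overlapped, and the difference was 2.16 ± 0.13 (adjusted p = 5.77e-11), a ratio of means of 6.87. EGR2, a factor of B and T cell activation and of peripheral myelin, had 4.18, 3.99 and 5.28 FPKM in doxorubicin and 0.676, 0.391 and 0.478 FPKM untreated. Its ratio of means was 8.70 and its difference 1.85 ± 0.10 (adjusted p = 6.27e-12). Since EGR2 passed the filter only through doxorubicin libraries of OCI-LY19 and SUDHL5, the filter favoured this call.

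EGR1 rose less, with 14.5, 10.7 and 17.5 FPKM in doxorubicin-treated OCI-LY19 and 7.54, 7.60 and 7.46 FPKM untreated, a difference of 0.81 ± 0.15 (adjusted p = 7.94e-05). EGR3, which was below the filter, had 0.605, 0.482 and 0.852 FPKM in doxorubicin and 0.113, 0.0930 and 0.107 FPKM untreated. The 3 EGR genes were thus all higher in every doxorubicin library of this line than in any untreated one, where 61.2% of all genes tested had groups without overlap. With no filter, EGR3 differed by 0.57 ± 0.07 (adjusted p = 3.44e-06).

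FOSB, the close relative of FOS, moved the other way: 0.528, 0.358 and 0.480 FPKM in doxorubicin and 1.56, 1.11 and 0.794 FPKM untreated in OCI-LY19, −0.55 ± 0.12 (adjusted p = 0.000478). FOSL2 (19.9 ± 2.55 and 20.9 ± 2.37 FPKM), JUNB (13.5 ± 5.31 and 12.6 ± 7.09 FPKM), JUND (6.27 ± 2.22 and 3.62 ± 2.84 FPKM) and IER2 (33.1 ± 3.58 and 34.4 ± 9.60 FPKM; doxorubicin and untreated, SD, n = 3 each) were not called. The libraries of this line carry different tags in their library names. Within tags L5 (1 library a group) and L6 (2 doxorubicin, 1 untreated), the differences were 3.20 and 3.25 for JUN, 2.02 and 2.13 for FOS, 1.84 and 1.77 for EGR2, 0.44 and 0.99 for EGR1 and −0.64 and −0.77 for FOSB. For JUND they were 0.32 and 1.16, and with the tag in the fit JUND was called higher (1.01, adjusted p = 0.032).

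Myeloid markers also moved in OCI-LY19: the summed FPKM of 6 markers was 20.0 to 33.2 in doxorubicin and 5.98 to 9.83 untreated, with 3 and 2 of the 6 at a mean of at least 1 FPKM. CD14, a defining monocyte marker, averaged 0.0443 FPKM in doxorubicin and 0.165 FPKM untreated, and LYZ 12.1 and 4.32 FPKM. In the same order ITGAM averaged 10.4 and 0.0687 FPKM, CSF1R 4.42 and 2.86 FPKM and MPO 0.295 and 0.668 FPKM. FCGR3A was at or below 0.0076 FPKM in both groups. Their part in the differences of the members was not tested.

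In OCI-LY3, EGR1, EGR2 and IER2 fell and JUND rose, 4 of 9 members tested, against 14.3% of all genes lower, 40.4% higher and 54.7% in either direction. Higher genes made up 73.9% of those calls, 53.9% under median-of-ratios scaling and 50.9% after quantile normalization. EGR1 had 0.453, 1.29 and 0.769 FPKM in doxorubicin and 1.72, 2.15 and 1.52 FPKM untreated, a difference of −0.63 ± 0.15 (adjusted p = 0.00112). IER2 had 7.17, 6.96 and 6.67 FPKM in doxorubicin and 9.10, 14.7 and 15.0 FPKM untreated, −0.78 ± 0.18 (adjusted p = 0.000866). The groups did not overlap for either gene.

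EGR2 had 0.118, 0.214 and 0.113 FPKM in doxorubicin-treated OCI-LY3 and 0.414, 0.534 and 0.244 FPKM untreated (−0.28 ± 0.10, adjusted p = 0.019), a call lost without untreated replicate 1 or 2 or doxorubicin replicate 1 or 3 (adjusted p up to 0.102). EGR3 had 0.101, 0.0992 and 0.0826 FPKM in doxorubicin and 0.402, 0.647 and 0.311 FPKM untreated, −0.40 ± 0.07 with no filter (adjusted p = 0.000209). All 3 EGR genes were lower in every doxorubicin library than in any untreated one, the opposite of OCI-LY19. Of all genes tested in OCI-LY3, 57.4% had groups without overlap.

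JUND had 16.6, 13.8 and 24.5 FPKM in doxorubicin-treated OCI-LY3 and 4.44, 6.30 and 16 FPKM untreated, 1.10 ± 0.38 (adjusted p = 0.0184). The third untreated library lay within the doxorubicin group. The difference was 0.54 within tag L4 (2 libraries a group) and 2.23 within tag L5 (1 a group), and the call was lost under median-of-ratios scaling (0.88, adjusted p = 0.0584). It was also lost without untreated replicate 1 (0.76, adjusted p = 0.123), untreated replicate 2 (0.97, adjusted p = 0.0664) or doxorubicin replicate 3 (0.88, adjusted p = 0.0883). FOS, FOSB, FOSL2 and JUN averaged 0.136 to 0.686 FPKM in both groups of this line and were not called, nor was JUNB at 16.5 ± 2.67 FPKM in doxorubicin and 11.6 ± 5.05 FPKM untreated (SD, n = 3 each). FOSL2 (0.287 FPKM in doxorubicin and 0.136 FPKM untreated) and JUN (0.686 and 0.456 FPKM) had groups without overlap, as did 57.4% of all genes tested. By voom on recovered reads FOSL2 was called higher (1.06, adjusted p = 0.0191) and JUN was not (0.55, adjusted p = 0.265). The median gene of OCI-LY3 differed by 0.16, and by 0.02 under median-of-ratios scaling. Relative to that median the differences were 0.94 for JUND, −0.79 for EGR1, −0.44 for EGR2 and −0.94 for IER2.

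In HT, FOSB and IER2 rose, 2 of 9 members tested, against 22.9% of all genes higher, 9.41% lower and 32.3% in either direction. Higher genes made up 70.9% of those calls, 57.6% under median-of-ratios scaling and 52.2% after quantile normalization. FOSB had 2.63, 3.20 and 2.59 FPKM in doxorubicin and 0.769, 1.06 and 1.04 FPKM untreated, 0.96 ± 0.12 (adjusted p = 7.35e-06). Every doxorubicin library lay above every untreated one, whereas in OCI-LY19 every one lay below. IER2 had 20.9, 21.6 and 15.9 FPKM in doxorubicin and 12.9, 15.1 and 10.6 FPKM untreated, 0.56 ± 0.18 (adjusted p = 0.0196), a call lost without untreated replicate 3 or doxorubicin replicate 1 or 2 (adjusted p up to 0.0986).

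Replicate numbers paired the HT samples, and with the number as a block 6 members were called higher. The share of all genes called with the block is not given, so this count cannot be set against it. FOSB (adjusted p = 0.000126) and IER2 (0.00608) were joined by JUNB (0.47, adjusted p = 0.017), JUND (0.70, adjusted p = 0.0213), EGR1 (0.37, adjusted p = 0.0305) and FOS (0.30, adjusted p = 0.038). EGR1 had 1.77, 1.35 and 1.50 FPKM in doxorubicin and 1.14, 0.909 and 0.850 FPKM untreated, and JUND had 36.7, 18.5 and 22.7 FPKM in doxorubicin and 16.2, 14.5 and 14.2 FPKM untreated. The groups did not overlap for either, nor for 42.2% of all genes tested. FOS had 0.586, 0.868 and 0.340 FPKM in doxorubicin and 0.158, 0.544 and 0.184 FPKM untreated, with overlap. JUN (1.60 ± 0.326 and 1.26 ± 0.424 FPKM in doxorubicin and untreated HT) was not called in either fit. FOSL2 rested on 35 reads in doxorubicin and 12 reads untreated over the 3 libraries of each group.

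In SUDHL5, where most members stood highest, EGR2 rose and FOS and FOSL2 fell, 3 of 9 members tested, against 18.6% of all genes higher, 19.9% lower and 38.5% in either direction. EGR2 had 1.26, 1.43 and 1.35 FPKM in doxorubicin and 0.690, 0.491 and 0.767 FPKM untreated, 0.51 ± 0.10 (adjusted p = 0.000262). FOSL2 had 0.956, 1.48 and 1.43 FPKM in doxorubicin and 2.23, 2.14 and 2.35 FPKM untreated, −0.51 ± 0.09 (adjusted p = 0.000217). The groups of both genes stood apart. For EGR2, which passed the filter only through doxorubicin libraries of this line and OCI-LY19, the filter favoured the call.

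FOS had 8.02, 8.73 and 8.49 FPKM in doxorubicin-treated SUDHL5 and 12.9, 9.65 and 11.4 FPKM untreated, −0.38 ± 0.13 (adjusted p = 0.0269), a call lost with no filter on low values (adjusted p = 0.0563), with a pseudocount of 0.1 (adjusted p = 0.35) and without untreated replicate 1 or 3 or doxorubicin replicate 1 or 3 (adjusted p up to 0.137). JUN was at 6.51, 6.65 and 6.50 FPKM in doxorubicin and 6.13, 6.77 and 6.56 FPKM untreated, 0.01 ± 0.15. The JUN libraries of both groups lay within the same range.

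JUNB, JUND, EGR1 and IER2 had groups without overlap in SUDHL5, as did 59.9% of all genes tested, but were not called with the spread shared by the 4 lines. JUND averaged 75.2 ± 3.29 FPKM in doxorubicin and 118 ± 4.59 FPKM untreated, and EGR1 84.6 ± 1.82 and 101 ± 6.20 FPKM. JUNB averaged 109 ± 2.68 FPKM in doxorubicin and 81.5 ± 2.25 FPKM untreated, and IER2 47.9 ± 0.417 and 62.3 ± 0.363 FPKM (SD, n = 3 each). Fitted with the SUDHL5 libraries alone, 7 members were called, these 4 among them, with adjusted p of 2.07e-05 for JUND, 4e-05 for JUNB, 0.00275 for EGR1 and 1.47e-05 for IER2. The share of all genes called in that fit is not given, and the 38.5% above belongs to the fit of the 4 lines together. The SUDHL5 replicates differed less than those of any other line: the chi-square per degree of freedom of their recovered reads was 1.98 to 5.77, against 8.65 to 41.0 in the other 3 lines. EGR3 had 0.337, 0.319 and 0.301 FPKM in doxorubicin and 0.0981, 0.146 and 0.122 FPKM untreated.

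T and NK cell markers moved in SUDHL5 as well, with a summed FPKM of 6 markers of 16.5 to 18.9 in doxorubicin and 4.31 to 4.94 untreated, 4 and 2 of them at a mean of at least 1 FPKM. CD3E averaged 8.09 FPKM in doxorubicin and 2.28 FPKM untreated, and CD8A was at 0 in both. The summed FPKM of the myeloid markers was 5.30 to 6.23 in doxorubicin and 0.299 to 0.466 untreated in SUDHL5. The stromal, epithelial or endothelial sum there, nearly all PECAM1, was 4.16 to 4.94 FPKM in doxorubicin and 2.03 to 2.18 FPKM untreated. The T and NK sums were 2.37 to 4.0 FPKM in doxorubicin and 0.905 to 1.65 FPKM untreated in OCI-LY3, and 1.71 to 2.18 FPKM in doxorubicin and 0.364 to 0.617 FPKM untreated in HT. OCI-LY19 went the other way, with T and NK sums of 4.92 to 6.47 FPKM in doxorubicin and 6.83 to 7.45 FPKM untreated. Their part in the differences of the members was not tested.

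Set against each other, the responses to doxorubicin differed among the 4 lines for 8 of 9 members (moderated F test), where 72.2% of all genes did. JUNB was the exception (adjusted p = 0.866). Over the 6 pairs of lines, 29 of 54 member differences in response were called, against 42.1% over all genes. JUN responded by 3.13 ± 0.22 more in OCI-LY19 than in OCI-LY3, 3.12 ± 0.22 more than in HT and 3.32 ± 0.22 more than in SUDHL5 (adjusted p at most 1.36e-09). For FOS these differences were 2.15, 1.86 and 2.54 ± 0.18 each, and for EGR2 2.13, 1.78 and 1.34 ± 0.14 each, all called. EGR2 was tested only because it was high in doxorubicin in OCI-LY19 and SUDHL5, so the filter favoured its differences in response.

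The EGR1 response was 1.44 ± 0.21 greater in OCI-LY19 than in OCI-LY3 (adjusted p = 1.04e-05) and 1.07 ± 0.21 greater than in SUDHL5 (adjusted p = 0.000342), but not called against HT (0.45, adjusted p = 0.0858). The FOSB response was 1.51 lower in OCI-LY19 than in HT (−1.51 ± 0.17, adjusted p = 5.89e-07). The IER2 response in HT exceeded that in OCI-LY3 by 1.34 ± 0.25 (adjusted p = 0.000498). The JUND response was lower in SUDHL5 than in OCI-LY3 (−1.75 ± 0.53, adjusted p = 0.0106). These pairs share the groups of each line, so they are not independent of one another. In the pairs with SUDHL5, line and library-name tag cannot be told apart.

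**Figure D2:**
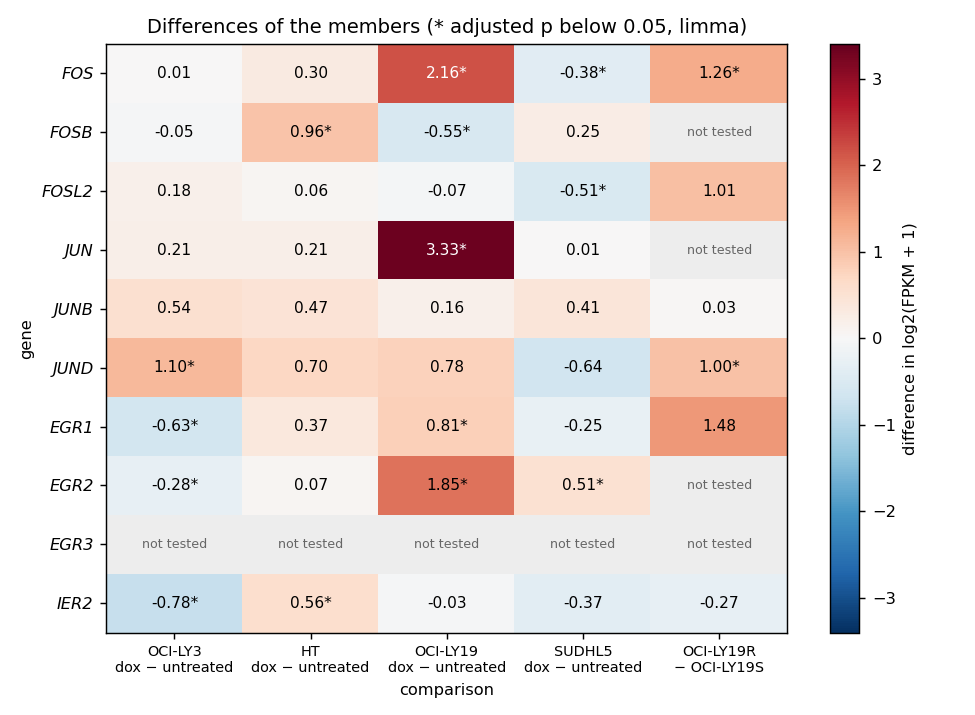
Difference in log2(FPKM + 1), doxorubicin (dox) minus untreated in the 4 lines and OCI-LY19R minus OCI-LY19S, for each member; an asterisk marks an adjusted p below 0.05 and grey cells fell below the filter. The values run from −0.78 for IER2 in OCI-LY3 to 3.33 for JUN in OCI-LY19, and no member is called in all 5 comparisons.

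In OCI-LY19R, 2 of the 6 members tested were called against OCI-LY19S, FOS and JUND, both higher, where 3.11% of all genes were called higher, 2.34% lower and 5.44% in either direction. FOS had 2.64, 4.62 and 6.45 FPKM in OCI-LY19R and 1.50, 0.824 and 1.44 FPKM in OCI-LY19S, 1.26 ± 0.27 (adjusted p = 0.0437). JUND had 12.3, 14.2 and 18.2 FPKM in OCI-LY19R and 8.56, 6.08 and 6.25 FPKM in OCI-LY19S, 1.0 ± 0.17 (adjusted p = 0.0278). The groups did not overlap, but both calls sit close to the threshold: the FOS call was lost without any 1 library except OCI-LY19R replicate 1 (adjusted p up to 0.193), and the JUND call without replicate 2 or 3 of either group (adjusted p up to 0.139). Neither was called with no filter on low values (adjusted p = 0.161 for FOS and 0.105 for JUND). Markers of other cell types moved too: the summed FPKM of the T and NK markers was 13.2 to 17.4 in OCI-LY19R and 10.4 to 12.5 in OCI-LY19S, with NKG7 alone at a mean of at least 1 FPKM in both. The 6 stromal, epithelial or endothelial markers summed to 0.282 to 0.516 FPKM in OCI-LY19R and 0.0422 to 0.0744 FPKM in OCI-LY19S, and the myeloid markers to 10.3 to 26.3 FPKM in OCI-LY19R and 6.84 to 15.5 FPKM in OCI-LY19S, which overlap. Their part in the differences was not tested.

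FOSL2 had 38.7, 59.0 and 59.6 FPKM in OCI-LY19R and 22.8, 20.7 and 33.4 FPKM in OCI-LY19S, 1.01 ± 0.23, just outside the threshold (adjusted p = 0.0545). FOSB, JUN and EGR3 were under the filter and did not overlap between groups, as did 32.7% of all genes tested. FOSB had 0.436, 0.463 and 0.803 FPKM in OCI-LY19R and 0.157, 0.228 and 0.148 FPKM in OCI-LY19S. JUN had 0.992, 1.64 and 1.21 FPKM in OCI-LY19R and 0.786, 0.523 and 0.620 FPKM in OCI-LY19S. EGR3 had 0.380, 0.316 and 0.393 FPKM in OCI-LY19R and 0.0541, 0.0966 and 0.0359 FPKM in OCI-LY19S, and with no filter it was called (0.36 ± 0.04, adjusted p = 0.048). JUNB, at 24.3 ± 3.83 FPKM in OCI-LY19R and 23.9 ± 4.56 FPKM in OCI-LY19S (SD, n = 3 each), differed by 0.03 ± 0.16.

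One library stood apart. EGR1 had 8.71, 10.1 and 9.91 FPKM in OCI-LY19R and 12.1, 0.853 and 1.21 FPKM in OCI-LY19S, and IER2 had 43.9, 37.1 and 33.3 FPKM in OCI-LY19R and 98.1, 35.7 and 27.2 FPKM in OCI-LY19S. The first OCI-LY19S library was at least 2-fold above both others for these 2 of the 6 members tested, and for 2.38% of all 12785 genes. It was likewise above both others for PPP1R15A, a phosphatase subunit of the stress response (18.0 against 4.57 and 4.09 FPKM), and ATF3, a stress-induced AP-1 partner (5.21 against 1.53 and 1.46 FPKM). In the lists described below this held for 1 of 9 AP-1 partners, 1 of 3 EGR family genes and co-repressors and 3 of 16 other immediate early genes. It held for 0 of 8 in the serum response factor list, 0 of 12 MAP kinases and upstream kinases and 0 of 9 phosphatases and feedback inhibitors. EGR2 followed the same order in OCI-LY19S, with 0.295, 0 and 0.0757 FPKM, against 0.227, 0.657 and 0.661 FPKM in OCI-LY19R. EGR1 differed by 1.48 ± 0.69 with all libraries (adjusted p = 0.247) and by 2.38 ± 0.11 without the first OCI-LY19S library (adjusted p = 0.0021). IER2 differed by −0.27 ± 0.43 with it and by 0.27 ± 0.15 without it, called in neither case. That library was singled out by its high EGR1 and IER2 values, so leaving it out had to raise both differences. The EGR1 call without it is thus no separate support for a difference. In the fit without it 4.94% of all genes tested were called higher and 3.45% lower. Without that library JUND stayed called (1.13, adjusted p = 0.0184) and FOS did not (1.34, adjusted p = 0.0519).

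**Figure D3:**
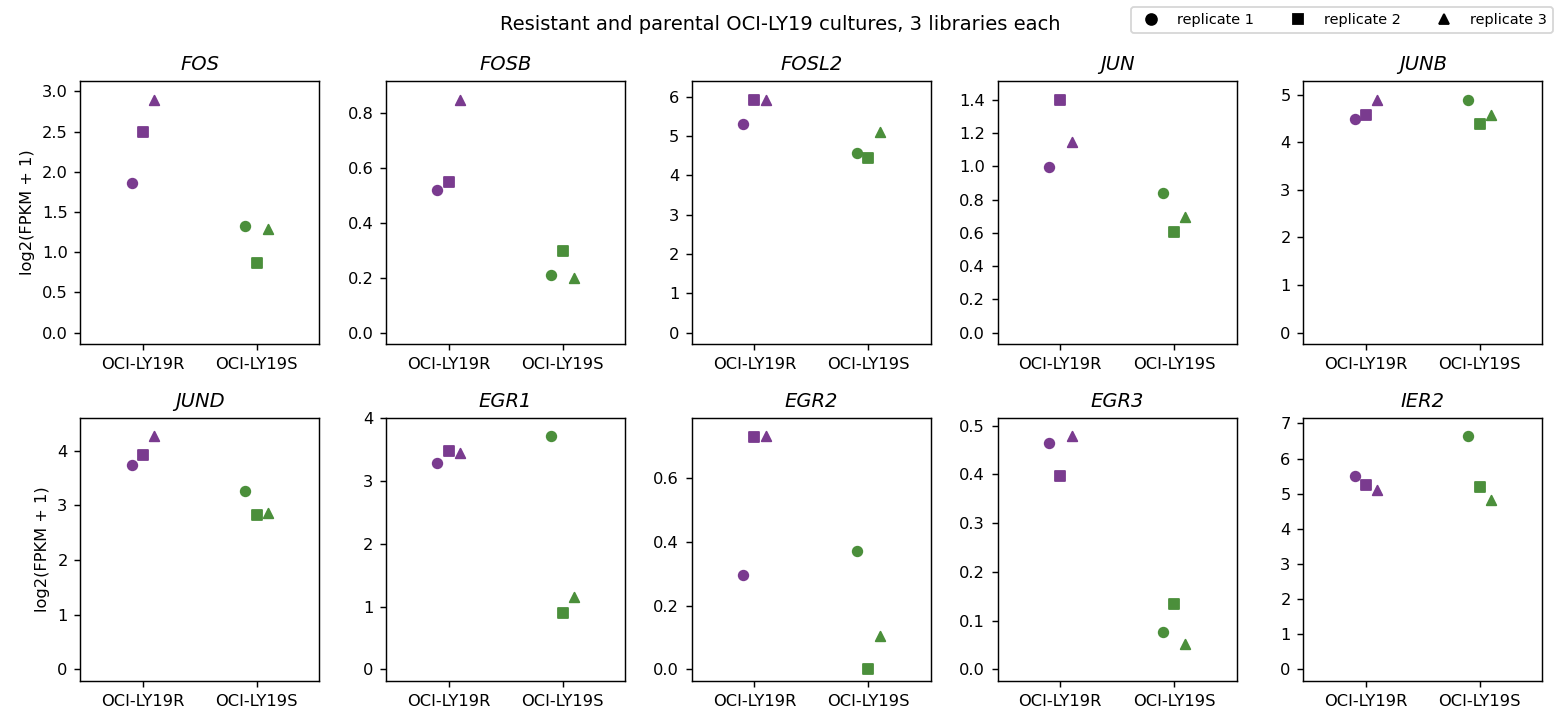
log2(FPKM + 1) of each member in OCI-LY19R (purple, left) and OCI-LY19S (green, right), with a symbol per replicate and its own range per panel. For EGR1 the first OCI-LY19S library (12.1 FPKM) lies above all 3 OCI-LY19R libraries, and the other OCI-LY19S libraries (0.853 and 1.21 FPKM) lie below them.

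The authors' deposited table of OCI-LY19R over OCI-LY19S gave a log2 fold change of 1.78 for FOS (adjusted p = 2.48e-06), 1.04 for JUND (1.6e-05) and 0.96 for FOSL2 (0.000787). The authors' deposited table also passed EGR3 (2.64, adjusted p = 1.74e-06), FOSB (1.63, adjusted p = 0.00023) and JUN (0.93, adjusted p = 0.0143), so that 6 of 10 members were higher there, against 5.15% of all genes with an adjusted p. For EGR1 (0.98, adjusted p = 0.751), EGR2 (2.02, adjusted p = 0.449), IER2 (−0.55, adjusted p = 0.741) and JUNB (−0.04, adjusted p = 0.949) the authors' deposited table gave no call.

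Genes around the members were counted in 6 lists. Of all genes, 54.7% were called in either direction in OCI-LY3, 32.3% in HT, 58.2% in OCI-LY19, 38.5% in SUDHL5 and 5.44% in OCI-LY19R. Those called higher were 40.4%, 22.9%, 34.5%, 18.6% and 3.11% in the same order. Each list count is to be read against these shares, and each list median against the medians of all genes given next. Some list genes passed the filter wholly or mainly through the doxorubicin libraries of a single line: DUSP4 and IER3 in OCI-LY19 and ID1 in HT. The filter favoured their calls there, which the counts include. The MAP kinases, some of which phosphorylate JUN or the ELK partners of serum response factor, were counted together with the kinases above them in the cascade (MAP2K and MAP3K genes), and 8 of these 12 were called higher in OCI-LY3 (median difference 0.22, against 0.16 for all genes) and 7 higher and 1 lower in HT (0.20 against 0.06). In OCI-LY19 3 were higher and 4 lower (−0.05 against 0.08), and in SUDHL5 1 was higher and 8 lower (−0.27 against 0.00). MAPK3, which encodes ERK1, had the largest rise in OCI-LY3, 1.33 ± 0.12 (18.8 ± 2.02 FPKM in doxorubicin and 6.91 ± 1.13 FPKM untreated), and the largest fall in SUDHL5, −0.68 ± 0.12. The extremes elsewhere were MAP3K1 (0.54) and MAP2K7 (−0.37) in HT, MAP3K5 (0.68) and MAPK14 (−0.38) in OCI-LY19 and MAP2K4 (0.16) in SUDHL5. In OCI-LY19R none of the 12 was called by limma, 1 at an unadjusted p below 0.05 and 0 by voom on recovered reads.

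A list of 8 transcriptional regulators held serum response factor and its ELK and MRTF partners, which act at CArG boxes, and CREB1 with its coactivator CRTC2, which act at cAMP response elements. It had 3 genes called higher (CREB1 among them, 0.26) and 2 lower in OCI-LY3 and 2 higher and 3 lower in OCI-LY19. In HT 2 and in SUDHL5 4 were called, all higher. The medians were 0.10 in OCI-LY3, 0.07 in HT, −0.02 in OCI-LY19 and 0.13 in SUDHL5. SRF fell in OCI-LY3 (16.3 ± 2.01 FPKM in doxorubicin and 23.1 ± 0.397 FPKM untreated, −0.49, adjusted p = 3.41e-05) and in OCI-LY19 (−0.34, adjusted p = 0.00108) and rose in SUDHL5 (0.38, adjusted p = 0.000749). It was at −0.05 in HT (adjusted p = 0.697) and 0.10 in OCI-LY19R (adjusted p = 0.55). The largest rises were MRTFB in OCI-LY3 (0.71) and HT (0.38), CRTC2 in OCI-LY19 (0.37) and ELK3 in SUDHL5 (1.20). In OCI-LY19R none of the 8 was called by limma, 2 at an unadjusted p below 0.05 and 0 by voom.

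AP-1 partners were called higher in 6 and lower in 2 of 11 in OCI-LY3, higher in 5 in HT, higher in 4 and lower in 1 in OCI-LY19 and higher in 4 and lower in 2 in SUDHL5, with medians of 0.26, 0.04, 0.15 and −0.03. ATF3, a stress-induced partner of JUN, rose by 2.13 ± 0.09 in OCI-LY19 (7.99 ± 1.32 FPKM in doxorubicin and 1.04 ± 0.162 FPKM untreated, adjusted p = 2.35e-13). It rose by 1.39 in SUDHL5 (adjusted p = 3.18e-10) and by 0.26 in OCI-LY3 (adjusted p = 0.0158), was at or below 0.0192 FPKM on average in both HT groups, and was not called in OCI-LY19R (−0.46, adjusted p = 0.466). BATF, a lymphoid partner of JUN proteins, rose by 0.87, 0.94 and 0.91 in OCI-LY3, OCI-LY19 and SUDHL5. It was at −0.19 in OCI-LY19R (adjusted p = 0.583), and at 0.04 in HT (adjusted p = 0.889), where it averaged 0.0439 FPKM in doxorubicin and 0.0165 FPKM untreated. FOSL1 had the largest rise in HT (0.48), and the largest falls were MAFK in OCI-LY3 (−0.83) and OCI-LY19 (−0.86) and MAFF in SUDHL5 (−0.83). In OCI-LY19R none of the 9 tested was called by limma, 1 at an unadjusted p below 0.05 and 0 by voom.

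NAB1 and NAB2, co-repressors that bind EGR proteins, were both called higher in OCI-LY3, HT and OCI-LY19, and NAB2, itself a known EGR1 target, had 29.5 ± 4.36 FPKM in doxorubicin and 14.6 ± 1.11 FPKM untreated in OCI-LY19 (0.96, adjusted p = 4.52e-09). NAB2 rose by 0.48 in HT and fell by 0.25 in SUDHL5 (−0.25, adjusted p = 0.0178), and NAB1 had the larger rise in OCI-LY3 (0.53). NAB2 was also higher in OCI-LY19R (18.2 ± 1.43 FPKM) than in OCI-LY19S (11.5 ± 1.66 FPKM), by 0.63 (adjusted p = 0.0347), the only one of 3 tested there.

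MAP kinase phosphatases and feedback inhibitors were called higher in 3 and lower in 3 of 11 in OCI-LY3, higher in 3 in HT, higher in 6 and lower in 3 in OCI-LY19 and higher in 2 and lower in 4 in SUDHL5, with medians of 0.01, 0.12, 0.39 and −0.03. DUSP10, a phosphatase of JNK and p38, rose by 3.08 ± 0.15 in OCI-LY19 (38.6 ± 8.59 FPKM in doxorubicin and 3.60 ± 0.363 FPKM untreated). DUSP1, the immediate early member of that family, rose in OCI-LY3 (0.59) and HT (0.76) and fell in OCI-LY19 (−0.50, adjusted p = 0.0189) and SUDHL5 (−0.45, adjusted p = 0.046). It was the one gene of 9 called in OCI-LY19R, where it was lower at 8.92 ± 0.567 FPKM, against 23.6 ± 5.27 FPKM in OCI-LY19S (−1.29, adjusted p = 0.0124). DUSP6, a phosphatase of ERK, rose in SUDHL5 (0.77), fell in OCI-LY19 (−0.28) and OCI-LY3 (−0.22), and was at −0.05 in HT and 0.03 in OCI-LY19R, not called. DUSP5 had the largest rise in OCI-LY3 (1.10) and HT (1.14), and DUSP2 the largest fall in OCI-LY3 (−0.97) and OCI-LY19 (−1.41), with DUSP7 in SUDHL5 (−0.76).

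Of the 25 other immediate early genes 21 were tested in the 4 lines: 4 higher and 6 lower in OCI-LY3, 5 and 4 in HT, 12 and 2 in OCI-LY19 and 6 and 7 in SUDHL5, with medians of −0.03, 0.16, 1.06 and −0.15. BTG2, an antiproliferative gene and p53 target, had 107 ± 21.5 FPKM in doxorubicin and 6.14 ± 0.288 FPKM untreated in OCI-LY19, 3.90 ± 0.13 (adjusted p = 6.03e-15). BTG2 also rose in SUDHL5 (0.87) and in OCI-LY19R against OCI-LY19S (1.33, adjusted p = 0.0124), and fell in OCI-LY3 (−0.52) and HT (−0.89). MYC had the largest fall of the list in all 4 lines, at −2.71 in OCI-LY3, −1.24 in HT, −0.69 in OCI-LY19 and −0.72 in SUDHL5. NR4A1, an orphan nuclear receptor induced by antigen receptor signalling, rose in OCI-LY3 (0.45) and HT (0.50), fell in SUDHL5 (−0.24, adjusted p = 0.0372) and was at −0.07 in OCI-LY19 (adjusted p = 0.558). The other largest rises were IER5 in OCI-LY3 (0.74) and SUDHL5 (1.07) and ID1 in HT (1.31). ID1 averaged 3.57 FPKM in doxorubicin-treated HT, 0.822 FPKM in untreated HT and at most 0.489 FPKM in the other lines. It was tested only through the group where it is highest, so the filter favoured this call.

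**Figure D4:**
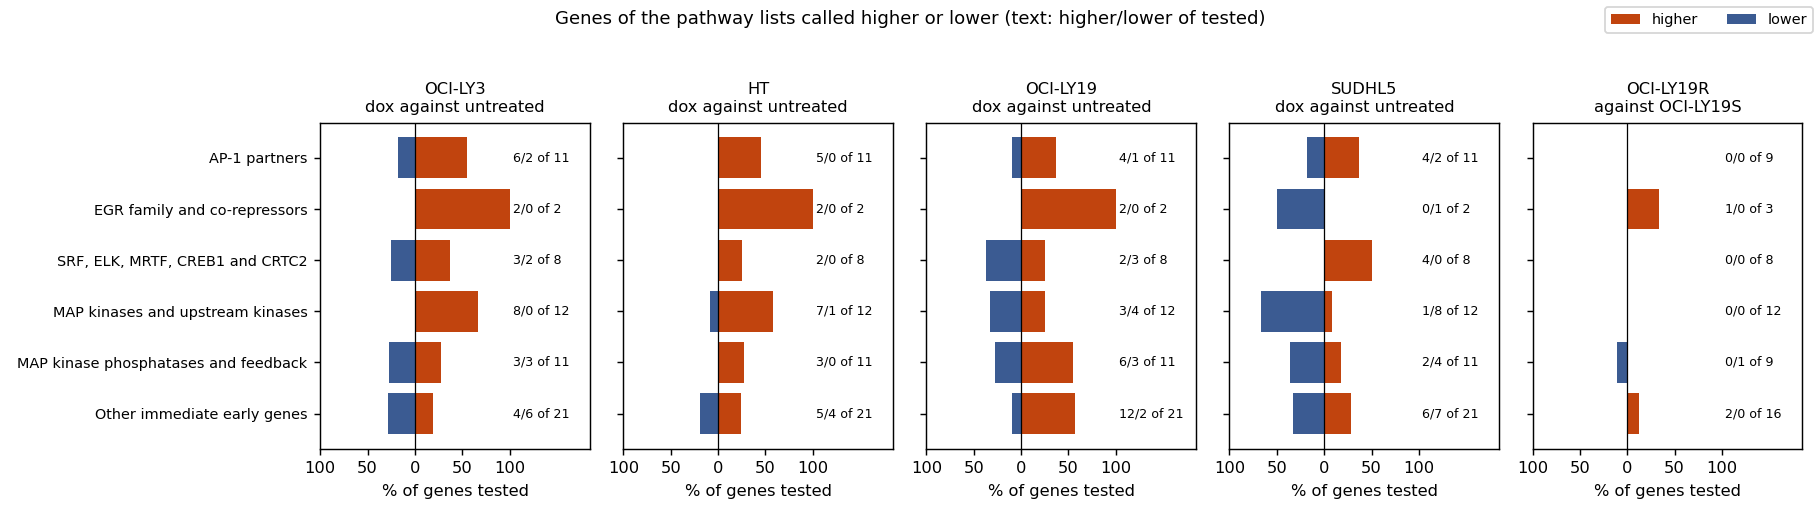
Share of the tested genes of each list called higher (red, to the right) or lower (blue, to the left) in doxorubicin (dox) against untreated for the 4 lines and in OCI-LY19R against OCI-LY19S; the text in each row gives the number higher, the number lower and the number tested. The other immediate early genes show 12 higher and 2 lower in OCI-LY19, and the MAP kinases with their upstream kinases 1 higher and 8 lower in SUDHL5. Of all genes, 34.5% were called higher and 23.7% lower in OCI-LY19, and 18.6% and 19.9% in SUDHL5.

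Across the 24 libraries of the 4 lines, which are 8 groups of 3 and so far fewer independent points, the genes most like FOS in log2(FPKM + 1) were PTPN14 (Pearson r = 0.984), UST-AS2 (0.980) and KSR1 (0.977). Those most like JUN were WDR59 (0.958), NLRP1 (0.954) and NRG4 (0.953), and those most like EGR1 were LINC02362 (0.991), NLRP2 (0.985) and GCA (0.977). For FOS the likeness followed high levels in OCI-LY19 after doxorubicin and in both SUDHL5 groups: UST-AS2 averaged 11.4 FPKM in doxorubicin-treated and 0.617 FPKM in untreated OCI-LY19, and 8.64 and 8.58 FPKM in doxorubicin-treated and untreated SUDHL5. For EGR1 it followed the level of SUDHL5, where NLRP2 averaged 13.7 FPKM in doxorubicin and 12.6 FPKM untreated.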

How the data were processed

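Polyadenylated RNA of 30 libraries was sequenced from strand-specific preparations, per the labels' protocols. The submitters' processing notes name Trimmomatic, STAR, featureCounts and the build hg38; tool versions and the annotation were not given in the sources consulted. FPKM values per gene, made by the authors, came as 2 tables (the 4 lines; OCI-LY19R with OCI-LY19S). These were normalized separately, so each test stayed within a table. Per the file headers, the resistance table adds a comparison by the authors, with a mean signal, a log2 fold change, a score for its error and another for its statistic, and p-values. The authors' fold change had the sign of OCI-LY19R minus OCI-LY19S in 89.4% of 13212 genes. Treated libraries were grouped by the treatment label, since some titles also carry the word ctrl.

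Tested were genes reaching 1 FPKM in 3 or more libraries, 17645 in the 4 lines and 12785 in the resistant set. limma 3.58.1 (R 4.3.3, trend, two-sided) was fitted to log2(FPKM + 1) over the 8 groups together (16 residual degrees of freedom) and over OCI-LY19R and OCI-LY19S (4). The tests measure the spread between the submitters' triplicates. With GENCODE 29 exon lengths for 39313 genes, 100.0% of values above 0 were whole reads within 0.01 read; lengths of 16507 further genes were solved from the values. No 2 replicates agreed within sampling noise. limma's voom on these reads, an alternative, called 7290 genes higher and 2491 lower in OCI-LY3, 4055 and 1597 in HT, 6270 and 4182 in OCI-LY19, 3232 and 3334 in SUDHL5 and 550 and 361 in OCI-LY19R. The fit was tested on simulated data. Deviations of same-numbered samples correlated at 0.17, 0.32 and 0.35 in HT, the one line with every pair over 0.1, so the block is given beside its results.

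Members and gene lists were chosen with earlier results of these data known. All members are named; of each list, the largest called rise and fall, and DUSP1, DUSP6, ATF3, BATF, BTG2, NR4A1 and SRF where tested. PPP1R15A, DUSP4 and IER3 were named after their values were seen. Promoters came from RefSeq (GRCh38.p14).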

Additional observations from a re-analysis of the deposited data

Results flagged for a closer look

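The response to doxorubicin differed among the 4 lines, by the moderated F test of limma on log2(FPKM + 1), for the following members. JUN had an adjusted p of 3.4e-10, with 27.7 ± 4.21 FPKM in doxorubicin and 1.88 ± 0.665 FPKM untreated in OCI-LY19 and 6.55 ± 0.0812 and 6.49 ± 0.329 FPKM in SUDHL5 (SD, n = 3 each). EGR2 had 9.38e-10 and FOS 4.22e-09, both higher in doxorubicin in OCI-LY19, while FOS was lower in doxorubicin in SUDHL5 and EGR2 in OCI-LY3. The filter favoured the EGR2 result, since EGR2 passed only through doxorubicin libraries of OCI-LY19 and SUDHL5. FOSB had 2.06e-06, higher in doxorubicin in HT and lower in OCI-LY19. EGR1 had 2.25e-05, higher in doxorubicin in OCI-LY19 and lower in OCI-LY3. IER2 had 0.000689, higher in doxorubicin in HT and lower in OCI-LY3. FOSL2 had 0.000739, and was called, lower in doxorubicin, in SUDHL5. JUND had 0.0292, called higher in doxorubicin in OCI-LY3 by a call that was lost when single libraries were left out. The same held for the calls of FOS in SUDHL5, EGR2 in OCI-LY3 and IER2 in HT. EGR3, below the filter, had 3.33e-06 with no filter. The share of all genes with a called difference in response was 72.2%.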

How the results depend on the processing

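Of 642 member differences recomputed, 556 kept their direction and side of the threshold, 34 lost and 30 gained a call, and 22 changed sign, none of them called before or after. The causes were not tested. The counts below stand without the share of all genes called in each setting. HT had 4 members called with a pseudocount of 0.1 and 6 with the replicate block. OCI-LY19 had 3 of 7 tested with a minimum FPKM of 5. SUDHL5 had 6 with the replicate block and 7 with the line alone. OCI-LY19R had 1 with no filter, 1 with a minimum of 5, 0 with the replicate block (limma) and 0 with no filter and a pseudocount of 0.1 together, a setting chosen after seeing the data. With 1 library left out, OCI-LY3 had 2 to 5 members called, HT 1 to 3, OCI-LY19 5 to 6, SUDHL5 2 to 3 and OCI-LY19R 0 to 2, and the counts were 7 to 8 for the response among lines, 27 to 32 of the 54 pairs and 8 to 9 for the untreated lines.

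Signs turned in OCI-LY3 for FOS under median-of-ratios scaling (−0.05) and quantile normalization (−0.27), and after quantile normalization for FOSL2 (−0.05) and JUN (−0.11). In OCI-LY19 they turned for FOSL2 (0.02) and IER2 (0.15) after quantile normalization and for IER2 once the tag in the library names entered the fit (0.15), and in OCI-LY19R for JUNB under median-of-ratios scaling (−0.03). Leaving out 1 library gave ranges that cross 0: FOS −0.07 to 0.09 and FOSB −0.11 to 0.0041 in OCI-LY3; FOSL2 −0.13 to 0.04, JUNB −0.20 to 0.55 and IER2 −0.21 to 0.17 in OCI-LY19; JUN −0.02 to 0.04 in SUDHL5; JUNB −0.09 to 0.17 and IER2 −0.63 to 0.27 in OCI-LY19R.

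Outside HT the replicate numbers did not pair every sample of a line by the correlation of their deviations, which ran from −0.11 to 0.36. OCI-LY19 replicates 1 and 2 (0.36 and 0.26), OCI-LY3 replicate 3 (0.36) and OCI-LY19R replicate 3 (0.12) did match their own number best. With the block in limma, JUND was called higher in OCI-LY19 (0.78, adjusted p = 0.00644) and JUNB in OCI-LY3 (0.54, adjusted p = 0.00434), neither of them called without it. Members below 1 FPKM rest on few reads, and the resistant set has 3 libraries a group.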
